A study of Homo sapiens with 8 samples.

Results

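The genes described here are 32 members of the Hippo pathway and its transcriptional output, chosen by gene symbol from the 60659 genes of the count table. They comprise the coactivators YAP1 and WWTR1 (which encodes TAZ), TEAD1 to TEAD4, the kinase core (STK3, STK4, SAV1, LATS1, LATS2, MOB1A and MOB1B), the upstream scaffolds NF2, WWC1 and FRMD6, the angiomotins AMOT, AMOTL1 and AMOTL2, the cofactors VGLL3 and VGLL4, the LIM proteins AJUBA and LIMD1 with the phosphatase PTPN14, and the target genes CCN1, CCN2, ANKRD1, AXL, NUAK2, CRIM1, ARHGEF17 and DLC1. All 32 were found in the table, and all 32 passed the count filter and were tested in both comparisons. VGLL3 passed it only through the libraries of the group where it was higher.

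Total RNA depleted of ribosomal RNA had been sequenced from SK-N-SH, an established human neuroblastoma line that holds both neuron-like and substrate-adherent cells, and every library came from cells given all-trans retinoic acid (ATRA, 10 μM), which the labels state as a treatment of 24 h. In the first experiment, 2 libraries came from cells with FLAG-tagged ZMYND8, a chromatin reader protein, under a doxycycline (Dox)-inducible lentiviral vector. They were set against 2 libraries of parental cells, and both groups were given Dox. The label of the control group says parental cells and names no vector. Whether these cells carried an empty vector is not given in the sources used here. In the second, 2 libraries with ZMYND8 knockdown (KD) were set against 2 KD control libraries. How the knockdown was made in SK-N-SH is not given in the sources used here, and the labels name no Dox in either group. Whether the transduced cells were a pool or a clone is not given in the sources used here, and the replicates are called biological without saying whether they are separate cultures, so p-values measure the spread between these libraries.

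In the Hippo pathway, the kinases MST1 and MST2 (STK4 and STK3), with the scaffold SAV1, activate LATS1 and LATS2 with their MOB1 partners. LATS kinases phosphorylate YAP and TAZ, which keeps them in the cytoplasm. Unphosphorylated YAP and TAZ enter the nucleus, bind TEAD transcription factors and switch on genes of adhesion, the cytoskeleton and growth, of which CCN1, CCN2 and ANKRD1 are the classical readouts. Some targets, among them LATS2, NF2, AMOTL2 and PTPN14, restrain YAP in turn. In neuroblastoma, YAP and TAZ are known as features of the mesenchymal and not of the adrenergic cell state. Phosphorylation and nuclear entry cannot be seen in RNA, so the values below are transcript levels only.

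Promoter sequences from RefSeq (GRCh38.p14) were held for 24 of the 32 genes, as windows from 250 bases before to 50 bases after the annotated start. The core of the TEAD binding element, GGAATG, was searched on both strands and occurred in 6 of the 24 windows (25%), against 14.05% of all 27305 promoters. It was in the windows of 3 of the 4 target genes held (CCN2, ANKRD1 and NUAK2), and also in those of YAP1, LATS2 and PTPN14. Among other YAP/TAZ target genes, 3 of 11 windows (27.27%) held it. The 250 bases before the start are shown for the 3 targets with a match and for PTPN14, the regulator with the largest decrease below. These genes fell with overexpression, as did YAP1, LATS2 and most of the 32. Whether a match goes with a change was not tested. All 4 lie on the minus strand and are written 5′ to 3′ in the direction of transcription, with each match in capitals, as its reverse complement where it lies on the other strand: CCN2 at chr6:131951373-131951622, ANKRD1 at chr10:90921088-90921337, PTPN14 at chr1:214551603-214551852 and NUAK2 at chr1:205321746-205321995.
CCN2: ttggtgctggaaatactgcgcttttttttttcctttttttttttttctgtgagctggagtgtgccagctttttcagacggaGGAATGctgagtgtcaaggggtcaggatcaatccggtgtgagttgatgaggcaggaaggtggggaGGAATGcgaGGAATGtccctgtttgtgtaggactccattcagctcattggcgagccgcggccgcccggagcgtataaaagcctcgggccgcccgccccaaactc
ANKRD1: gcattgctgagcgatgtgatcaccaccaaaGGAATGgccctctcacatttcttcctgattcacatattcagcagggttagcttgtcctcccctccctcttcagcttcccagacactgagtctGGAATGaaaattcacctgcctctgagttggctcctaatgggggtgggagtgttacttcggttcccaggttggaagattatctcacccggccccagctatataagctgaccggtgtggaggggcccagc
PTPN14: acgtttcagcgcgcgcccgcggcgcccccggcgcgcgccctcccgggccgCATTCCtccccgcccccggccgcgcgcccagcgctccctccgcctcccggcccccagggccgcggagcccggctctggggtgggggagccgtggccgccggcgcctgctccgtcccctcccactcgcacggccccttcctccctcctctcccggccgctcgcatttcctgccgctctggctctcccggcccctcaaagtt
NUAK2: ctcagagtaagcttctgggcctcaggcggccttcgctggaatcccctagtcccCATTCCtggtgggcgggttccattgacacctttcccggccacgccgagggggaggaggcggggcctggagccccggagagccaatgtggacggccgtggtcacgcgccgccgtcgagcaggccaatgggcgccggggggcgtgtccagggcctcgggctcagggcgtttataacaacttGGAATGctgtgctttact

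CCN2 has 3 matches on the strand shown, which begin 169, 104 and 95 bases before the start. ANKRD1 has 2, at 220 and 128 bases, and NUAK2 has 1 on each strand, at 197 and 18 bases. The single match of PTPN14, at 200 bases, reads on the opposite strand. These matches are a description of the letters and do not show that a TEAD factor was bound.

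Libraries held 38316523 to 56256979 counts on genes, and the replicates of each group differed by more than counting noise (chi-square per degree of freedom 6.05 to 8.86). ZMYND8 itself, the check of the labels, stood at 72.7 and 69.9 CPM (counts scaled to one common library total, with TMM-normalised library sizes) in the parental and 4100 and 4153 CPM in the overexpression libraries, and at 59.5 and 61.0 CPM in the KD control and 31.3 and 31.5 CPM in the knockdown libraries. Its log2 fold change was 5.87 (standard error, SE, 0.060, adjusted p = 5.04e-12) with overexpression and -0.94 (SE 0.056, adjusted p = 2.20e-06) with knockdown. Levels below are CPM after TMM normalization over all 8 libraries, listed as replicate 1 and replicate 2, and adjusted p-values come from edgeR's two-sided quasi-likelihood test over all genes tested (Benjamini-Hochberg), fitted on the 4 libraries of each comparison.

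With ZMYND8 overexpression, 28 of the 32 genes fell and 4 rose at an adjusted p below 0.05. Of the 20835 genes tested, 29.1% fell and 31.7% rose at this threshold. The decreases took in both coactivators, 3 of 4 TEAD genes, 6 of 7 genes of the kinase core, all 3 upstream scaffolds, 2 of 3 angiomotins and all 8 targets, while TEAD3, LATS1, AMOT and VGLL3 were the 4 that rose. When a log2 fold change of 1 or more in size and a mean above 20 normalized counts were required as well, 11 genes were called lower (YAP1, WWTR1, TEAD1, LATS2, FRMD6, PTPN14, CCN1, CCN2, ANKRD1, CRIM1 and ARHGEF17) and 1 was called higher (VGLL3), where 6.84% and 11.8% of all genes were called in these directions. VGLL3 passed the count filter only through the overexpression libraries, so its rise and its call follow in part from the filter. The median log2 fold change of the 32 genes was -0.60, beside 0.03 for all genes tested.

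Scaling mattered for the smaller changes. With library totals in place of TMM, the median log2 fold change of all genes with overexpression moved up by 0.25, and 48.4% of all genes were then higher and 17.2% lower, in place of the 31.7% and 29.1% above. Under that scaling, 22 of the 32 genes were lower and 4 higher, and their median was -0.35, beside 0.29 for all genes. TEAD2, AMOTL1 and VGLL4 then had values of 0.073, 0.049 and 0.0017, so that their direction is not settled, and STK4, MOB1B and WWC1 no longer passed the threshold. TEAD1 and ARHGEF17 remained lower but lost the call, since their log2 fold change came closer to 0 than 1.

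With ZMYND8 knockdown, the changes were smaller and mostly upward: 16 of the 32 genes rose, FRMD6 fell and 15 did not pass an adjusted p of 0.05, against 13.4% of all 19789 genes tested that rose and 10.8% that fell. Both coactivators, 6 of 8 targets, NF2, WWC1, AMOTL2, AJUBA, PTPN14, STK4, MOB1B and VGLL3 rose. VGLL3 passed the count filter only through the knockdown libraries, so its place here follows in part from the filter. None of the 4 TEAD genes passed the threshold (adjusted p 0.0898 to 0.991). ANKRD1 was the 1 gene called with all 3 thresholds, in a background of 1.36% of genes called higher and 0.596% called lower. The median log2 fold change of the 32 genes was 0.21, beside -0.01 for all genes. With library totals in place of TMM, 15 were higher and 2 lower (FRMD6 and VGLL4), where 10.1% of all genes were higher and 15.6% lower.

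**Figure D1:**
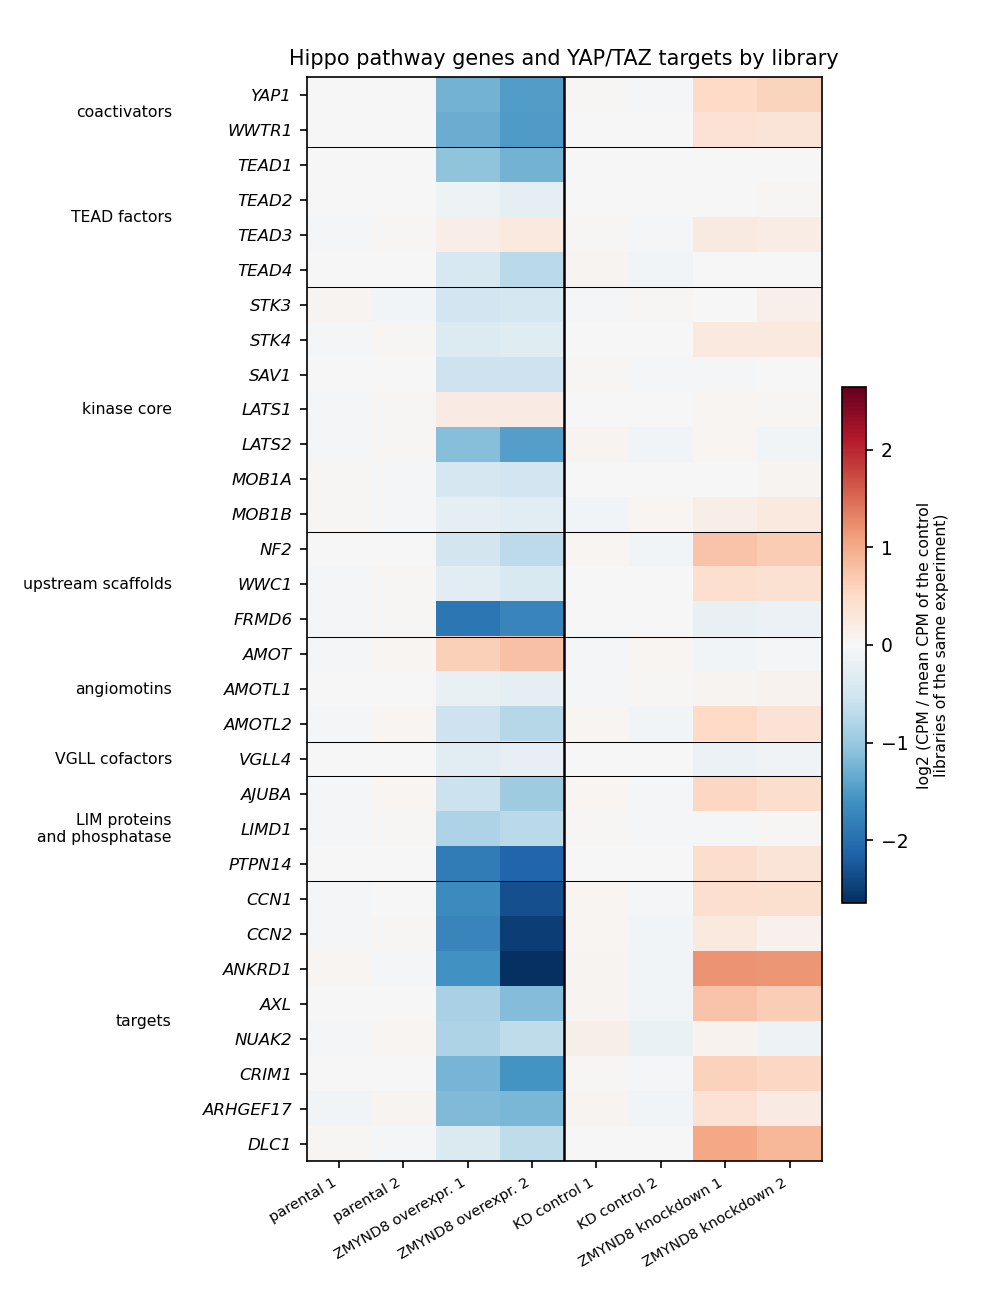
Level of 31 of the genes in each of the 8 libraries, as log2 of CPM over the mean CPM of the control libraries of the same experiment, with genes grouped by role (VGLL3, with no count in the parental libraries, is left out). Blue cells, lower than the controls, fill most of the columns of both overexpression libraries, and the darkest are CCN1, CCN2, ANKRD1, PTPN14 and FRMD6; red cells, higher than the controls, mark ANKRD1, DLC1, NF2 and AXL in both knockdown libraries.

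YAP1 (chromosome 11, 102110447 to 102233424, GRCh38), the main coactivator of the pathway, stood at 292 and 289.6 CPM in the parental libraries, 122 and 104 CPM with overexpression, 104 and 101 CPM in the KD control and 147 and 153 CPM with knockdown. The groups did not overlap in either experiment. The log2 fold change was -1.35 (SE 0.070, adjusted p = 4.90e-08) with overexpression and 0.55 (SE 0.049, adjusted p = 2.92e-05) with knockdown. WWTR1 (chromosome 3, 149517235 to 149736714), which encodes the paralog TAZ, had 146 and 147 CPM in the parental, 58.8 and 52.0 CPM in the overexpression, 86.0 and 85.6 CPM in the KD control and 111 and 108 CPM in the knockdown libraries. It fell by 1.39 on the log2 scale with overexpression (SE 0.062, adjusted p = 1.63e-08) and rose by 0.36 with knockdown (SE 0.049, adjusted p = 0.000459). Both coactivators thus moved in opposite directions in the 2 experiments. Of the exonic bases of YAP1, 10.1% lie under a gene on the opposite strand, as do 9.05% of those of WWTR1, and the strand setting of the counting is not given in the sources used here.

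TEAD1 (chromosome 11, 12674421 to 12944737), the TEAD factor with the highest level per kilobase in the parental cells, had 414 and 413 CPM there and 198 and 172 CPM with overexpression (log2 fold change -1.15, SE 0.065, adjusted p = 9.90e-08). In the KD control it had 376 and 384 CPM and with knockdown 384 and 375 CPM, groups that overlapped almost whole (0.0012, SE 0.051, adjusted p = 0.991). TEAD4 stood at 18.9 and 19.1 CPM in the parental and 14.1 and 11.6 CPM in the overexpression libraries (-0.55, SE 0.099, adjusted p = 0.000683), and at 12.8 and 11.5 CPM against 12.2 and 12.3 CPM in the KD control and knockdown libraries.

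TEAD2 was at 86.4 and 85.8 CPM in the parental and 78.3 and 72.5 CPM in the overexpression libraries (log2 fold change -0.18, SE 0.054, adjusted p = 0.0135), a decrease that was -0.12 and did not pass without overexpression replicate 2 (adjusted p = 0.0928) and that turned to 0.073 under library totals. In the KD control it was at 39.1 and 39.6 CPM and with knockdown at 39.4 and 40.3 CPM. TEAD3 was the TEAD gene that rose with overexpression, from 25.1 and 26.3 CPM to 29.1 and 30.5 CPM (0.22, SE 0.064, adjusted p = 0.0124). This value was 0.17 without parental replicate 1 (adjusted p = 0.123), 0.19 without overexpression replicate 2 (adjusted p = 0.0548) and -0.086 after taking out trends over gene length and GC content. In the knockdown experiment TEAD3 had 13.2 and 12.5 CPM in the control and 15.2 and 14.7 CPM in the knockdown libraries, groups that did not overlap, with an effect of the same size that missed the threshold (0.22, SE 0.085, adjusted p = 0.0898).

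Per kilobase of exon, TEAD1 made up 45.7% to 45.9% of the summed TEAD level in the parental libraries and 29.0% to 30.6% with overexpression, where TEAD2 held the largest share (43.4% to 43.8%, after 34.1% to 34.4% in the parental). The summed level of the 4 TEAD genes went from 84.2 and 84.4 CPM per kilobase of exon (RPKM) to 60.5 and 55.6 RPKM. In the KD control and knockdown libraries TEAD1 held 59.6% to 61.5% and the sum was 58.3 to 59.5 RPKM. YAP1 supplied 72.3% to 73.3% of the coactivator level in both the parental and overexpression libraries, while the sum of YAP1 and WWTR1 went from 63.8 and 63.4 RPKM to 26.4 and 22.7 RPKM. In the knockdown experiment that sum went from 26.8 and 26.2 RPKM in the control to 36.6 and 37.2 RPKM.

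**Figure D2:**
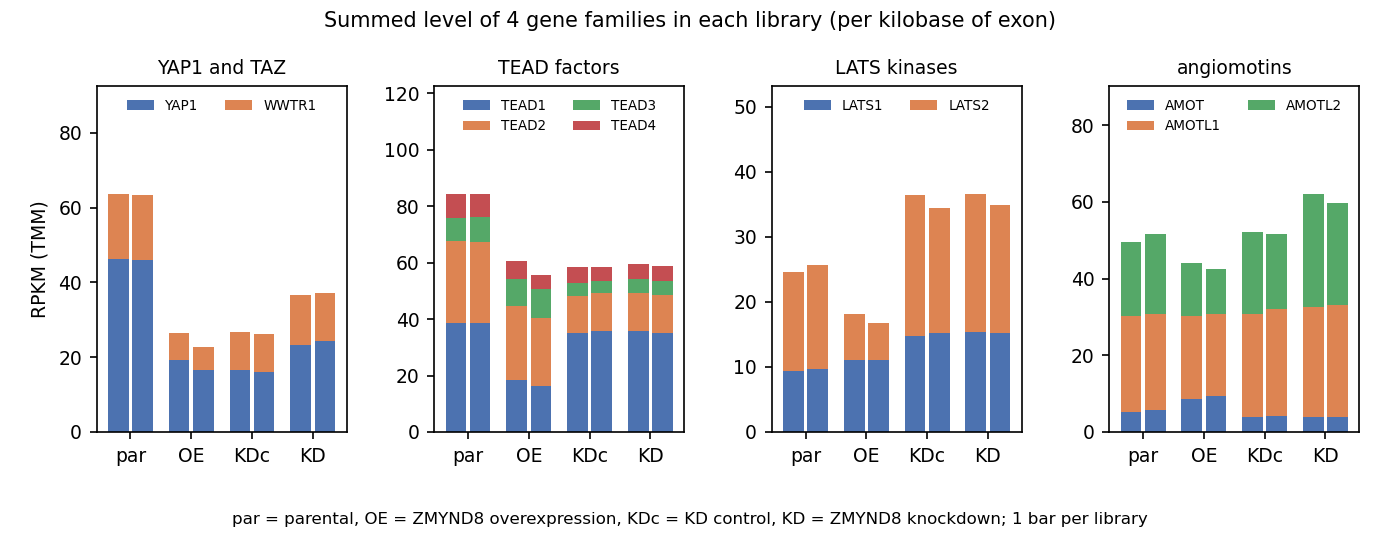
Summed level of the coactivators, the TEAD factors, the LATS kinases and the angiomotins in each library, in RPKM (TMM), with the part of each gene stacked. The parental bars of the coactivators stand at 63.8 and 63.4 RPKM and the overexpression bars at 26.4 and 22.7 RPKM, and the LATS panel shows a smaller part for LATS2 in the overexpression libraries.

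Within the kinase core, the LATS genes went apart. LATS2 (chromosome 13, 20973036 to 21061586), a kinase gene that is also a YAP target, had 85.8 and 89.2 CPM in the parental and 40.0 and 31.8 CPM in the overexpression libraries (log2 fold change -1.27, SE 0.089, adjusted p = 5.22e-07). LATS1 (chromosome 6, 149658153 to 149718105) rose from 79.0 and 82.5 CPM to 93.5 and 94.4 CPM (0.23, SE 0.050, adjusted p = 0.00248). Neither passed the threshold with knockdown. LATS2 was at 121 and 109 CPM in the KD control and 119 and 110.2 CPM in the knockdown libraries, and LATS1 at 125 and 129 CPM and at 131 and 129.6 CPM. As a share of the LATS level per kilobase, LATS1 went from 37.8% and 37.9% in the parental to 60.7% and 66.2% in the overexpression libraries, and stayed between 40.6% and 43.9% in the other experiment. The remaining genes of the core encode the kinases MST2 (STK3) and MST1 (STK4), the scaffold SAV1 and the LATS activators MOB1A and MOB1B. All 5 fell with overexpression, by log2 fold changes from -0.54 (SAV1, adjusted p = 7.89e-06) to -0.26 (MOB1B, adjusted p = 0.000964), but of SAV1 31.9% of the exonic bases lie under a gene on the opposite strand. With knockdown, STK4 rose (0.27, SE 0.047, adjusted p = 0.00215) and so did MOB1B (0.21, SE 0.059, adjusted p = 0.0281), though MOB1B did not pass without KD control replicate 1 (adjusted p = 0.203) or knockdown replicate 2 (adjusted p = 0.0900). STK3, SAV1 and MOB1A had values between -0.029 and 0.083 that did not pass.

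FRMD6 (chromosome 14, 51489100 to 51730727), a FERM-domain protein that acts upstream of the kinases, had the largest decrease of the scaffolds with overexpression, from 510.2 and 531 CPM to 138 and 156 CPM (log2 fold change -1.81, SE 0.063, adjusted p = 2.56e-09). With knockdown it was the 1 gene of the 32 that fell, from 128 and 128 CPM to 112 and 115 CPM (-0.17, SE 0.047, adjusted p = 0.0259), a call that was lost when any of the 4 libraries was left out (adjusted p 0.0588 to 0.114). NF2, which encodes merlin, a scaffold that brings LATS kinases to the membrane, and WWC1, which encodes the scaffold KIBRA, went down in one experiment and up in the other. NF2 ranged from 234 to 236 CPM in the parental, 146 to 168 CPM in the overexpression, 185 to 202 CPM in the KD control and 309.9 to 324 CPM in the knockdown libraries, with log2 fold changes of -0.57 (SE 0.065, adjusted p = 2.44e-05) and 0.72 (SE 0.057, adjusted p = 1.35e-05). For WWC1 the corresponding values were -0.33 (SE 0.078, adjusted p = 0.00428) and 0.43 (SE 0.070, adjusted p = 0.00146).

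The angiomotins, junction proteins that hold YAP in the cytoplasm, did not move as 1 family. AMOT was higher in the overexpression libraries (72.7 to 80.8 CPM) than in the parental ones (45.7 to 48.9 CPM), a log2 fold change of 0.70 (SE 0.064, adjusted p = 4.00e-06). AMOTL2, itself a YAP target, fell with overexpression (-0.64, SE 0.071, adjusted p = 2.10e-05) and rose with knockdown (0.46, SE 0.064, adjusted p = 0.000530). AMOTL1 had -0.21 with overexpression (adjusted p = 0.00306), which became 0.049 under library totals, and 0.089 with knockdown (adjusted p = 0.233). AMOT did not pass with knockdown (-0.045, adjusted p = 0.666).

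VGLL4, a cofactor that competes with YAP for TEAD, changed little: it had -0.25 with overexpression (SE 0.050, adjusted p = 0.00126; 0.0017 under library totals) and -0.12 with knockdown (SE 0.048, adjusted p = 0.0951), and 23.7% of its exonic bases lie under a gene on the opposite strand. VGLL3, another TEAD cofactor, was barely expressed, with 0 and 0 counts in the parental, 74 and 16 in the overexpression, 6 and 4 in the KD control and 27 and 19 in the knockdown libraries. It passed the count filter only through the overexpression libraries in the first comparison and the knockdown libraries in the second. Its p-values and calls are therefore not independent of the filter. With overexpression it was at least 13.5-fold higher, as computed against a floor of 3 counts in each parental library (counting error only; adjusted p = 0.000589), and it lost the call of all 3 thresholds without overexpression replicate 1, which held most of the counts. The bound was 5.65-fold without that library and 21.4-fold without overexpression replicate 2. With knockdown its log2 fold change was 2.22 (SE 0.50, adjusted p = 0.00839), and adjusted p was 0.0791 without KD control replicate 2 and 0.0667 without knockdown replicate 1.

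PTPN14 (chromosome 1, 214348700 to 214552449), a phosphatase that binds YAP and retains it in the cytoplasm, had 486 and 482 CPM in the parental and 134 and 112 CPM in the overexpression libraries, 428 and 420.0 CPM in the KD control and 587 and 534 CPM with knockdown. Its decrease with overexpression was the largest of the 24 regulators and factors (log2 fold change -1.96, SE 0.075, adjusted p = 4.91e-09), and with knockdown it rose by 0.41 (SE 0.059, adjusted p = 0.000700). AJUBA and LIMD1, LIM proteins that bind LATS kinases and inhibit them, both fell with overexpression, by 0.73 (SE 0.10, adjusted p = 9.66e-05) and by 0.76 (SE 0.057, adjusted p = 8.88e-07) on the log2 scale. With knockdown AJUBA rose (0.51, SE 0.057, adjusted p = 0.000118) and LIMD1 was at 0.0052 (adjusted p = 0.962). Of the exonic bases of LIMD1, 24.9% lie under a gene on the opposite strand.

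The classical targets CCN1, CCN2 and ANKRD1 fell to about the same extent as PTPN14 with overexpression. CCN1 (chromosome 1, 85580761 to 85584589), a secreted matrix-associated protein also known as CYR61, was at 110.1 and 113 CPM in the parental and 34.9 and 22.3 CPM in the overexpression libraries (log2 fold change -1.95, SE 0.15, adjusted p = 9.81e-07). CCN2 (chromosome 6, 131948176 to 131951372), also known as connective tissue growth factor, was at 214 and 222 CPM against 65.4 and 38.9 CPM (-2.05, SE 0.17, adjusted p = 2.25e-06). ANKRD1 (chromosome 10, 90912096 to 90921087), an ankyrin repeat protein of muscle and nucleus, was at 8.49 and 7.99 CPM against 2.71 and 1.32 CPM (-1.996, SE 0.24, adjusted p = 4.02e-05). In all 3 genes both overexpression libraries lay below both parental ones, an order that was not counted over all genes. Replicate 2 lay well below replicate 1 in each. The log2 fold change of ANKRD1 was -2.63 without overexpression replicate 1 and -1.59 without overexpression replicate 2, and it passed in both cases.

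In the knockdown experiment these 3 targets gave unequal responses. ANKRD1 had 75.7 and 68.1 CPM in the KD control and 164 and 162 CPM in the knockdown libraries, a log2 fold change of 1.18 (SE 0.057, adjusted p = 6.49e-07). CCN1 had 163 and 152 CPM against 214 and 212 CPM (0.44, SE 0.052, adjusted p = 0.000179). CCN2 had 93.0 and 85.5 CPM against 107 and 96.2 CPM and missed the threshold (0.19, SE 0.065, adjusted p = 0.0535), and its call turned on single libraries: adjusted p was 0.000821 without knockdown replicate 2, 0.325 without knockdown replicate 1 and 0.332 without KD control replicate 2. It was 0.0483 with DESeq2 and 0.412 in the fit of all 8 libraries. All 3 were higher in both knockdown libraries than in either control library, but how many of all genes separated in this way was not counted. For CCN2 this order does not replace the missed threshold. Of the exonic bases of CCN2, 8.34% lie under a gene on the opposite strand.

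Of the other 5 targets, CRIM1, a transmembrane protein that binds growth factors of the BMP family, had 528 and 533 CPM in the parental, 226 and 177 CPM in the overexpression, 286 and 272 CPM in the KD control and 428 and 408 CPM in the knockdown libraries. It fell by 1.39 on the log2 scale in the first experiment (SE 0.093, adjusted p = 3.83e-07) and rose by 0.59 in the second (SE 0.054, adjusted p = 3.47e-05). For CRIM1, 13.0% of the exonic 31-base sequences also occur on alternate contigs of GRCh38, where reads with several matches can be lost. ARHGEF17, a guanine nucleotide exchange factor, had 234 and 256 CPM in the parental, 109 and 107 CPM in the overexpression, 132 and 119 CPM in the KD control and 164 and 146 CPM in the knockdown libraries. Its log2 fold changes were -1.18 (SE 0.057, adjusted p = 2.84e-08) and 0.31 (SE 0.068, adjusted p = 0.00740), the second of which was 0.24 and did not pass without KD control replicate 2 (adjusted p = 0.0943).

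AXL, a receptor tyrosine kinase, missed the fold threshold narrowly with overexpression (log2 fold change -0.98, SE 0.080, adjusted p = 1.92e-06) and was called when parental replicate 1 or overexpression replicate 1 was left out. With knockdown it rose by 0.71 (SE 0.062, adjusted p = 2.66e-05). DLC1, a tumour suppressor protein, had the second largest knockdown increase of the targets (0.95, SE 0.057, adjusted p = 2.32e-06), from 69.8 to 70.5 CPM in the control to 129 to 142 CPM, and was called when knockdown replicate 2 was left out. With overexpression DLC1 fell by 0.51 (SE 0.080, adjusted p = 0.000283). NUAK2, an AMPK-related kinase, fell with overexpression (-0.73, SE 0.13, adjusted p = 0.000616) from a low level of 6.42 to 6.89 CPM, and was at -0.0078 with knockdown (SE 0.10, adjusted p = 0.970).

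**Figure D3:**
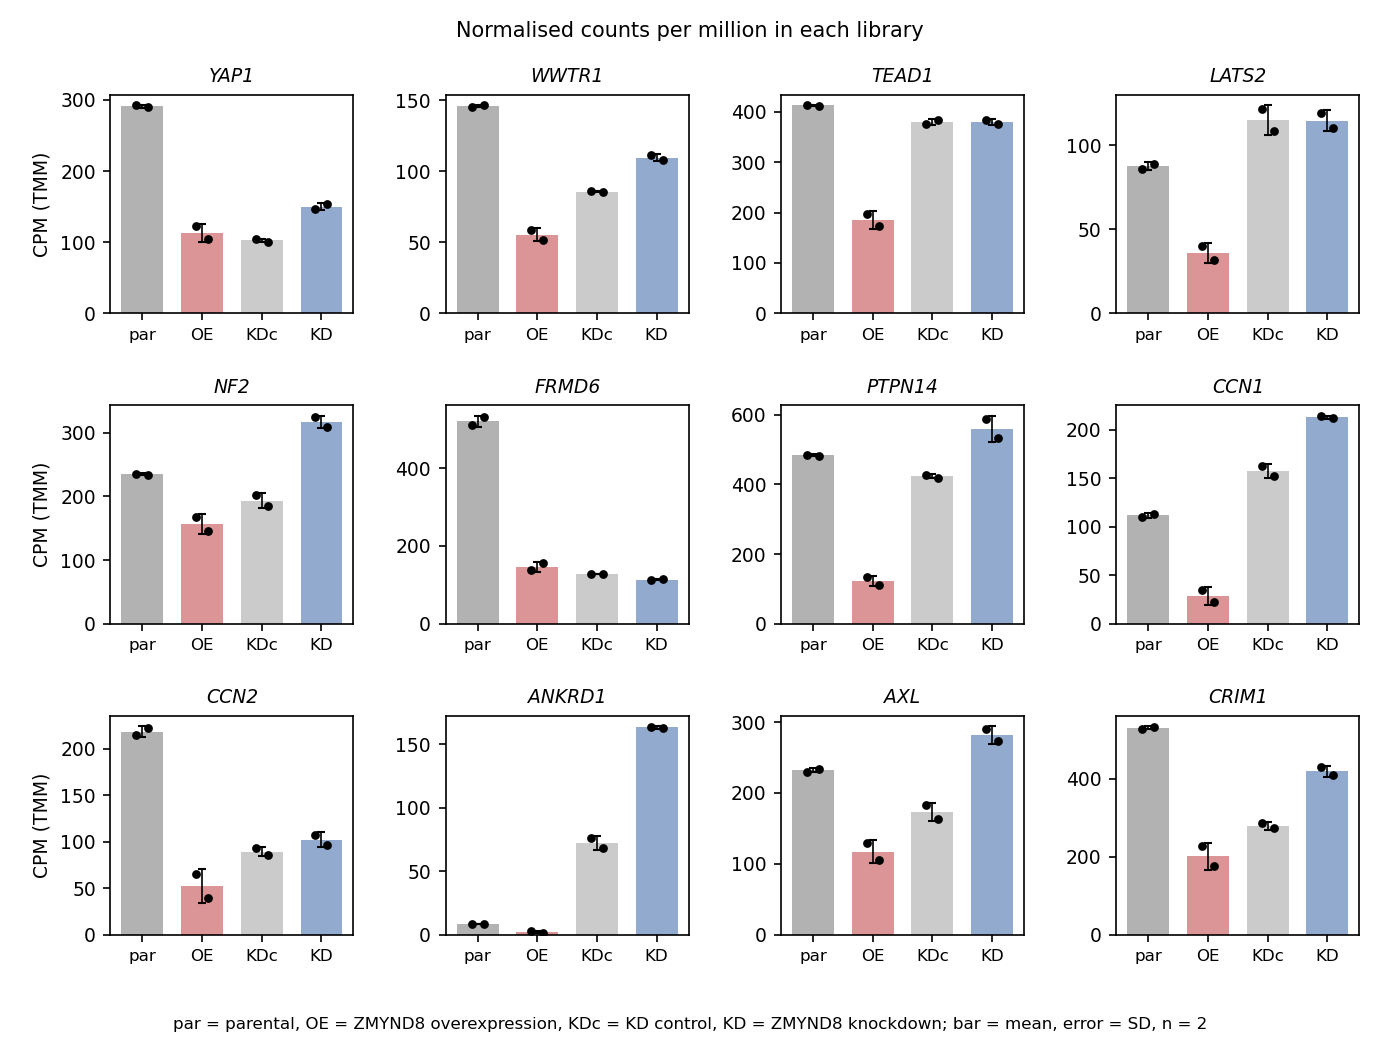
CPM (TMM) of 12 of the genes in the 4 groups, with the mean as a bar, the SD as an error bar and each of the 2 libraries as a point; axes start at 0 and differ between genes. The overexpression bars lie below the parental ones in all 12 panels, while in the knockdown experiment ANKRD1 shows the largest difference (75.7 and 68.1 against 164 and 162 CPM) and TEAD1 and LATS2 show none beyond the spread of the libraries.

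Set side by side, 15 of the 32 genes fell with overexpression and rose with knockdown at an adjusted p below 0.05, namely YAP1, WWTR1, STK4, MOB1B, NF2, WWC1, AMOTL2, AJUBA, PTPN14, CCN1, ANKRD1, AXL, CRIM1, ARHGEF17 and DLC1. Of the 18504 genes tested in both comparisons, 7.86% did so. None of the 32 rose with overexpression and fell with knockdown. FRMD6 fell in both, VGLL3 rose in both, LATS1 and AMOT rose with overexpression without passing with knockdown, TEAD3 did likewise but at the same log2 fold change in both (0.22 and 0.22), and 12 genes fell with overexpression without passing in the knockdown comparison. Of the 11 genes called lower with overexpression, 7 rose with knockdown. The 4 others were TEAD1, LATS2, FRMD6 and CCN2. The matching share among all genes called lower with overexpression was not computed.

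The difference between the effects of overexpression and knockdown, tested as 1 contrast over all 8 libraries, passed an adjusted p of 0.05 for 30 of the 32 genes. For 27 the overexpression effect was the lower one and for 3 (LATS1, AMOT and VGLL3) the higher one, where 24.4% and 24.6% of the 22619 genes tested passed in these directions. VGLL3, with no count in the parental libraries, has no finite difference, and it did not pass without KD control replicate 1 (adjusted p = 0.0634), parental replicate 1 (0.0539) or parental replicate 2 (0.0715). Of the other genes, the largest difference was that of ANKRD1, -3.17 on the log2 scale (SE 0.20, adjusted p = 5.52e-09; -3.82 without overexpression replicate 1 and -2.78 without overexpression replicate 2), followed by CCN1 (-2.39, SE 0.17, adjusted p = 2.37e-08) and PTPN14 (-2.38, SE 0.10, adjusted p = 7.39e-11). For TEAD1 and LATS2, which did not pass with knockdown, the difference was -1.16 (SE 0.085, adjusted p = 2.97e-08) and -1.28 (SE 0.12, adjusted p = 4.23e-07). TEAD3 (-0.0030, adjusted p = 0.999) and VGLL4 (-0.14, adjusted p = 0.120) did not pass, and under library totals they had 0.32 (adjusted p = 0.0163) and 0.18 (adjusted p = 0.0382).

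**Figure D4:**
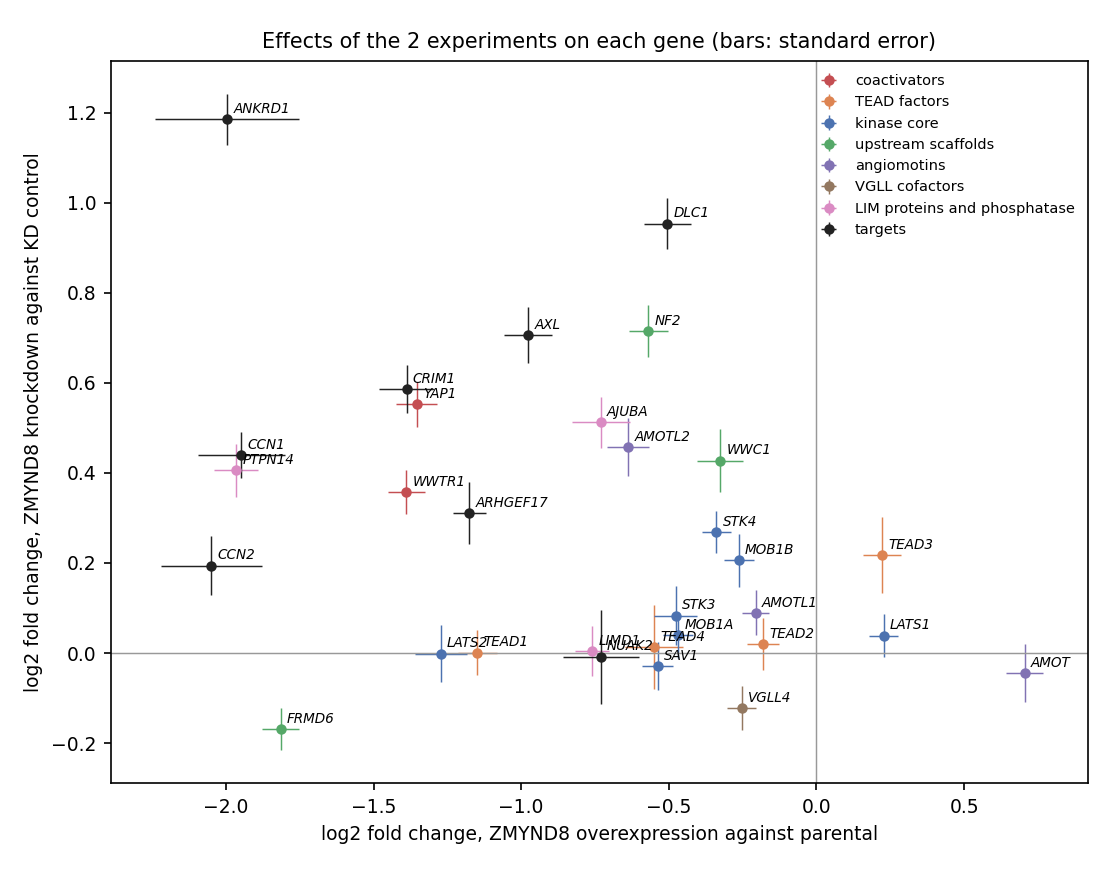
Log2 fold change with overexpression (horizontal) against that with knockdown (vertical) for 31 of the genes, with standard errors as bars and colours by role; VGLL3 is left out. Most points lie to the left of 0 and at or above 0 on the vertical axis, with ANKRD1 (-1.996 and 1.18) in the far upper left, FRMD6 below 0 on both axes, and AMOT farthest to the right (0.70).

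The 2 experiments started from different control levels. For 18 of the 31 genes with counts in both control groups the mean was lower in the KD control than in the parental libraries, and for 13 it was higher. ANKRD1 was 8.73-fold and NUAK2 4.61-fold higher in the KD control, while FRMD6 was 4.06-fold, YAP1 2.84-fold and CCN2 2.45-fold higher in the parental libraries. FRMD6 and YAP1 thus stood in the KD control near the level they had with overexpression. These ratios were not tested, and the experiment, Dox and any vector cannot be told apart as their source.

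In the overexpression group, the library with the lower level was mostly the same one. Replicate 2 lay below replicate 1 in 21 of the 28 genes that fell and in 10 of the 11 called lower, the exception being FRMD6. The same count was not made over all genes, so this order cannot be called particular to these genes. The 2 libraries held alike amounts of ZMYND8 (4100 and 4153 CPM). The 8 targets summed to 614 and 491 CPM in these libraries, against 1389 and 1429 CPM in the parental ones, so the difference between the replicates was small beside that between the groups.

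Genes of the pathway outside the 32 moved in part alike. Of all genes tested with overexpression, 29.1% fell, 31.7% rose, 6.84% were called lower and 11.8% called higher. Of those tested with knockdown, 13.4% rose, 10.8% fell, 1.36% were called higher and 0.596% called lower. Of 15 other YAP/TAZ targets tested, 11 fell and 2 rose with overexpression, with 8 called lower and 0 called higher (median log2 fold change -1.05), and TGFB2, a growth factor of the TGF-beta family, and MYOF, a membrane repair protein, had the largest decreases (-2.72, SE 0.17, adjusted p = 1.93e-07, and -2.55, SE 0.097, adjusted p = 4.73e-09). With knockdown, 11 rose and 2 fell (median 0.37), and 3 were called higher, of which TGFB2 (1.21, SE 0.053, adjusted p = 3.83e-07) and F3, the initiator of blood coagulation (1.13, SE 0.11, adjusted p = 4.78e-05), had the largest increases. For TGFB2, 22.7% of the exonic bases are shared with another gene on the same strand, and its value is uncertain for that reason. Of 30 other Hippo regulators tested, 19 fell and 5 rose with overexpression (median -0.33). The largest calls were RASSF5, a binding partner of MST kinases (-2.61, SE 0.072, adjusted p = 4.98e-10) and TNIK, a kinase of the MAP4K family (-1.43, SE 0.066, adjusted p = 2.10e-08), downward, and DCHS1 (2.40, SE 0.064, adjusted p = 4.14e-10), a cadherin that binds FAT4, and RASSF2 (2.29, SE 0.12, adjusted p = 4.79e-08), another MST partner, upward. With knockdown, 6 of the 30 rose, 7 fell and 0 were called (median 0.03).

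**Figure D5:**
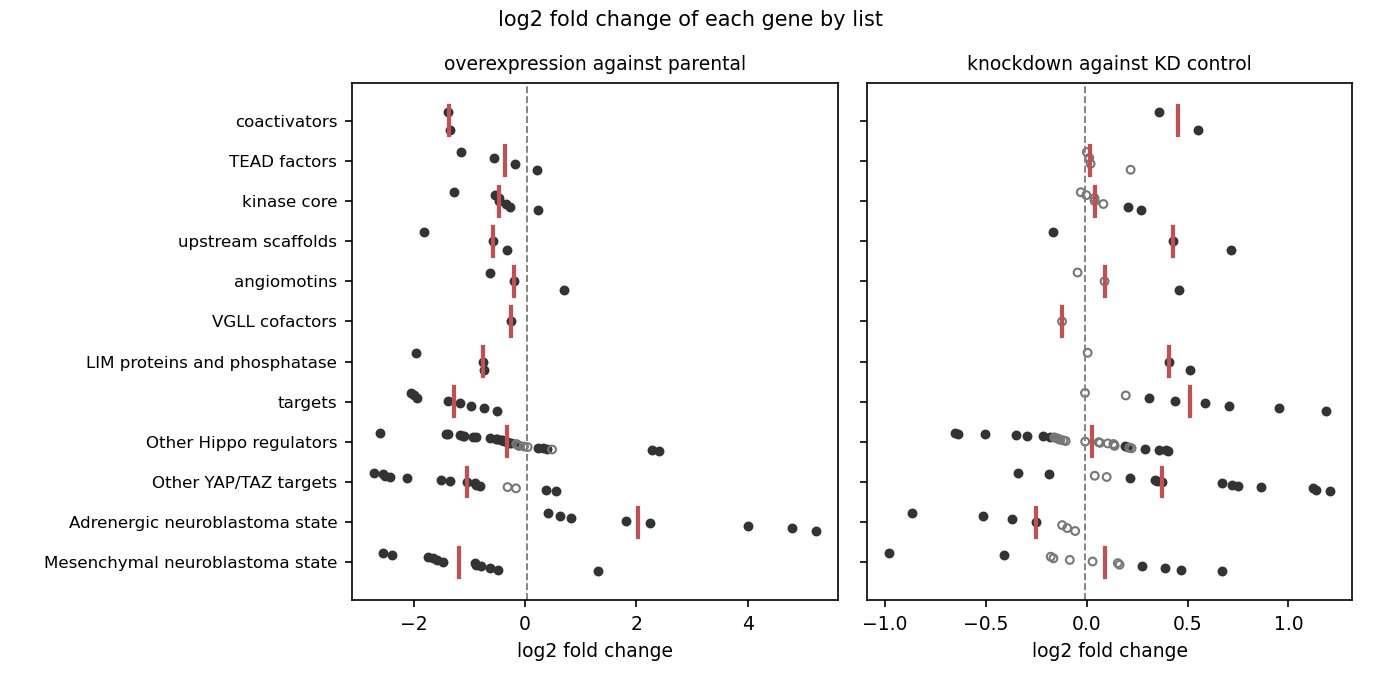
Log2 fold change of each tested gene by list, on the left for overexpression against parental and on the right for knockdown against KD control, with different horizontal scales. Filled points passed an adjusted p of 0.05, red bars are list medians and the dashed line is the median of all genes tested (0.03 and -0.01); VGLL3 is left out. With overexpression the 8 targets lie left of the dashed line, as do most other YAP/TAZ targets, of which 2 passed to the right of it (IGFBP3 at 0.55 and RBMS3 at 0.38), and with knockdown most of both lists lie right of it.

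Markers of the neuroblastoma cell states changed alongside these genes with overexpression, while the mesenchymal list was mixed with knockdown. The counts below stand beside 31.7% of all genes that rose and 29.1% that fell with overexpression. With knockdown these shares were 13.4% and 10.8%. All 8 tested adrenergic markers rose with overexpression, and their summed level was 329 to 332 CPM in the parental and 1125 to 1183 CPM in the overexpression libraries. Of 12 mesenchymal markers 11 fell and 1 (TWIST1) rose, and the sum went from 7598 to 7713 CPM down to 3194 to 3473 CPM. With knockdown, 0 of 7 adrenergic markers rose and 4 fell (738 to 777 CPM in the control, 576 to 644 CPM in the knockdown libraries). Of 12 mesenchymal markers, 4 rose and 2 fell (5320 to 5435 CPM, 5758 to 6065 CPM), with a median log2 fold change of 0.09. The mesenchymal marker PRRX1 went from 129.4 and 129.2 CPM in the KD control to 66.3 and 64.5 CPM in the knockdown libraries. TH, the rate-limiting enzyme of catecholamine synthesis, was at 0 to 5 counts per library, and CDH5 and PTPRC, which mark endothelium and blood, were at 0 to 2. PECAM1, the third marker of that list, was low but changed: it had 82 and 100 counts in the parental and 17 and 2 in the overexpression libraries (log2 fold change -3.31, SE 0.45, adjusted p = 9.51e-05), and was called lower with knockdown too (-1.12, SE 0.25, adjusted p = 0.00861). The glial marker S100B rose with overexpression, from 12 and 11 to 106 and 104 counts (3.14, SE 0.29, adjusted p = 4.11e-06), and did not pass with knockdown (-0.0090, adjusted p = 0.982), and GFAP did not pass with overexpression and was too low to test with knockdown. Of 3 division markers, 2 fell with overexpression and 1 with knockdown, and 0 rose. Fewer cells of a state and less RNA of these genes per cell cannot be told apart in bulk libraries, and the part of these markers in the results above was not tested.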

How the data were processed

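RNA of 8 libraries was analysed from whole-number counts per gene, which the authors deposited without normalization. The methods name Trim_Galore for trimming and the removal of reads of low Phred score, Hisat2 for alignment to GRCh38 and featureCounts with a GENCODE annotation for counting. The submitters' processing notes name HISAT2, DESeq2 and hg38. The strand setting is not given in the sources used here, so overlapping genes are uncertain. Libraries were grouped by the treatment in their labels. The 32 genes, the role lists, the lists of other pathway genes and the markers were chosen with earlier results of these data known.

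Of 60662 lines of the table, 3 that belong to 1 split gene were left out, which leaves 60659 genes. Symbols were looked up in GENCODE release 44, where 60418 identifiers matched, and promoters from RefSeq. Coordinates of genes are those of the table. Each comparison was filtered with filterByExpr (minimum count 10), normalized with TMM and tested with the quasi-likelihood test of edgeR (version 4.0.16, on limma 3.58.1 and R 4.3.3), with Benjamini-Hochberg adjustment over all genes. The difference of the 2 effects was tested in 1 model of all 8 libraries. The fits were tested on simulated counts. Values in each library are given for the coactivators, TEAD and LATS genes, CCN1, CCN2, ANKRD1 and each called gene, and other lists by their 2 largest called changes in each direction.

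Alternatives were RLE and upper quartile normalization, offsets that set the median of all genes at 0, DESeq2 (version 1.42.0), no filter, 1 fit of all 8 libraries, a block for the replicate number, loess trends over gene length and GC content (span 0.5) with and without the block, other thresholds, and leaving out each library in turn. Library totals without a further factor were added after seeing the data.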

Additional observations from a re-analysis of the deposited data

Results flagged for a closer look

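For 29 of the genes the effect of ZMYND8 overexpression and that of ZMYND8 knockdown differed by a test of the difference itself (edgeR, adjusted p below 0.05), given here as overexpression effect minus knockdown effect on the log2 scale. VGLL3 also passed, but the parental libraries held no count of it and its difference has no finite error. It did not pass without KD control replicate 1 (adjusted p = 0.0634), parental replicate 1 (0.0539) or parental replicate 2 (0.0715). Among the targets the difference was -3.17 for ANKRD1, -2.39 for CCN1, -2.25 for CCN2, -1.98 for CRIM1, -1.69 for AXL, -1.49 for ARHGEF17, -1.47 for DLC1 and -0.73 for NUAK2. The coactivators had -1.91 (YAP1) and -1.75 (WWTR1), and the TEAD genes -1.16 (TEAD1), -0.57 (TEAD4) and -0.21 (TEAD2).

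In the kinase core the difference was -1.28 for LATS2, -0.61 for STK4, -0.57 for STK3, -0.52 for MOB1A, -0.52 for SAV1, -0.48 for MOB1B and 0.18 for LATS1. Of the genes that act on this core or on YAP, PTPN14 had -2.38, FRMD6 -1.65, NF2 -1.29, AJUBA -1.25, AMOTL2 -1.10, LIMD1 -0.77, WWC1 -0.76, AMOTL1 -0.30 and AMOT 0.74. The values of TEAD2 (adjusted p = 0.0331) and LATS1 (adjusted p = 0.0388) lay closest to the threshold, and leaving out 1 library took the adjusted p of TEAD2 up to 0.147 and that of LATS1 up to 0.175. No group was large enough for a test of single libraries that stand apart.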

How the results depend on the processing

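With 2 libraries in a group, leaving out 1 rests on the assumption that the lone library varies like the others. Of the results for single genes under the alternatives, 435 of 448 kept their direction and side of the threshold in the overexpression comparison, 390 of 447 in the knockdown comparison and 413 of 448 for the difference of the effects. The median of the 32 genes with overexpression was -0.35 under library totals, -0.53 with upper quartile factors, -0.63 with the median of all genes at 0, -0.62 with DESeq2, -0.81 with length and GC trends taken out, and -0.69 to -0.54 when each library was left out. With knockdown it was 0.15 under library totals. Without a fold threshold, 32 genes were called with overexpression and 16 with knockdown, and leaving out a library gave 1 to 2 calls with knockdown. The count of genes lower with knockdown was 2 under library totals, 2 with length and GC trends, 0 without a filter, 0 in the fit of all 8 libraries and 0 whichever library was left out.

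With the replicate number as a block, 28 genes were lower and 4 higher with overexpression, and 2 were lower and 17 higher with knockdown, where CCN2 passed (adjusted p = 0.00292); with the block and the length and GC trends together, 2 were lower and the overexpression median was -0.82. Samples that share a number correlated in their deviations by 0.059 and 0.14, and with 2 pairs an experiment they were not taken as paired.

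Directions turned for genes near 0. With overexpression these were TEAD2 (0.073), AMOTL1 (0.049) and VGLL4 (0.0017) under library totals, and TEAD3 with length and GC trends (-0.086, and -0.085 with the block). With knockdown under library totals they were TEAD1 (-0.056), TEAD2 (-0.038), TEAD4 (-0.044), LATS1 (-0.019), MOB1A (-0.017) and LIMD1 (-0.052), and with upper quartile factors TEAD1 (-0.015), TEAD4 (-0.0028) and LIMD1 (-0.011). TEAD1 was at -0.0016 in the fit of all 8 libraries. With length and GC trends, TEAD1 was at -0.046 (-0.046 with the block), LIMD1 at -0.052 (-0.052 with the block) and NUAK2 at 0.0084 (0.011 with the block). LATS2 was at 0.0005 with RLE, 0.0071 with the median of all genes at 0, 0.0011 with DESeq2 and 0.0032 without a filter, and NUAK2 at 0.0006 with the median at 0. For the difference of the effects, library totals gave TEAD2 0.11, TEAD3 0.32, AMOTL1 0.017 and VGLL4 0.18, and upper quartile factors TEAD3 0.069. The cause was not tested.

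When each library was left out, values spanned 0 with knockdown for TEAD1 (-0.022 to 0.024), TEAD4 (-0.065 to 0.087), SAV1 (-0.068 to 0.0034), LATS2 (-0.079 to 0.073), AMOT (-0.10 to 0.0058), LIMD1 (-0.027 to 0.030) and NUAK2 (-0.16 to 0.15), and for the difference of the effects for TEAD3 (-0.047 to 0.042).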
